A study of Homo sapiens with 6 samples.

Results

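Glycolysis genes, together with the genes for glucose uptake at its start and for lactate and pyruvate handling at its end, were examined in K562 cells with and without hyperoside. The members were 33 genes taken by symbol from the 24960 genes of the table, and they cover 15 steps, from the SLC2A glucose transporters to the SLC16A lactate transporters. K562 is a chronic myeloid leukemia (CML) cell line grown in suspension, and RNA-seq was run on 3 libraries labelled control and 3 libraries labelled hyperoside. Hyperoside is a plant flavonol glycoside and was used at 2 mM. The sources used here give neither the agent added to the control cells nor how long the cells were exposed before RNA was extracted. All libraries come from this 1 cell line, and no source states that the replicates were separate cultures, so p-values measure the spread between these samples, which may be technical.

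Glycolysis breaks glucose down to pyruvate in the cytosol, first spending ATP to prime the sugar and then regaining ATP and NADH from its fragments. Fast-growing cells, leukemia lines among them, often reduce much of the pyruvate to lactate and export it, while pyruvate dehydrogenase kinases hold pyruvate back from the mitochondria. Most steps are served by several isoforms that differ in regulation and tissue distribution, so a step can change its isoform composition as well as its total transcript level.

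Members were called in both directions with hyperoside, as tested genes were in general. Transcripts of the glucose transporters SLC2A1 and SLC2A3, of HK2, PFKP, PFKFB2, PFKFB4, ENO2, PKM and PDK1 and of the lactate transporter SLC16A3 rose. Transcripts of both measured aldolases, of PFKM, GAPDH, PGK1, LDHB, PDK3, PDK4, the transporter SLC2A8 and the lactate transporter SLC16A1 fell. Of the 32 members that passed the filter on low counts, 10 (31.2%) were thus called higher and 10 (31.2%) lower at an adjusted p under 0.05 by edgeR's quasi-likelihood test. Over all 15095 tested genes the same test called 22.1% higher and 23.2% lower, so calls in both directions are common in these libraries. A division of the members into higher and lower ones is therefore not read as particular to the pathway. The median log2 fold change of the members was 0.06, and that of all tested genes was 0.0032. The calls of LDHB and PDK3 were kept in only 3 and 5 of the 13 alternative fits described below. Those of SLC2A3, PFKFB4 and GAPDH were lost in some of these fits.

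Differentially expressed genes (DEGs), which also needed a fold change above 2, numbered 3 among the members. These were SLC2A1 and SLC16A3 on the higher side, where 6.43% of all tested genes are DEGs, and ALDOC on the lower side, where 3.76% are. SLC2A8 joined the lower DEGs without hyperoside replicate 1, which made 2, and PDK2 the higher ones without control replicate 3, which made 3. In 22 members (68.8%) the 3 control and the 3 hyperoside libraries did not overlap in CPM, the counts scaled to normalized library size, against 54.4% of all tested genes. The remaining member, SLC2A6, had 0, 2 and 6 counts in the control libraries and 6, 6 and 12 counts in the hyperoside libraries and was not tested.

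**Figure D1:**
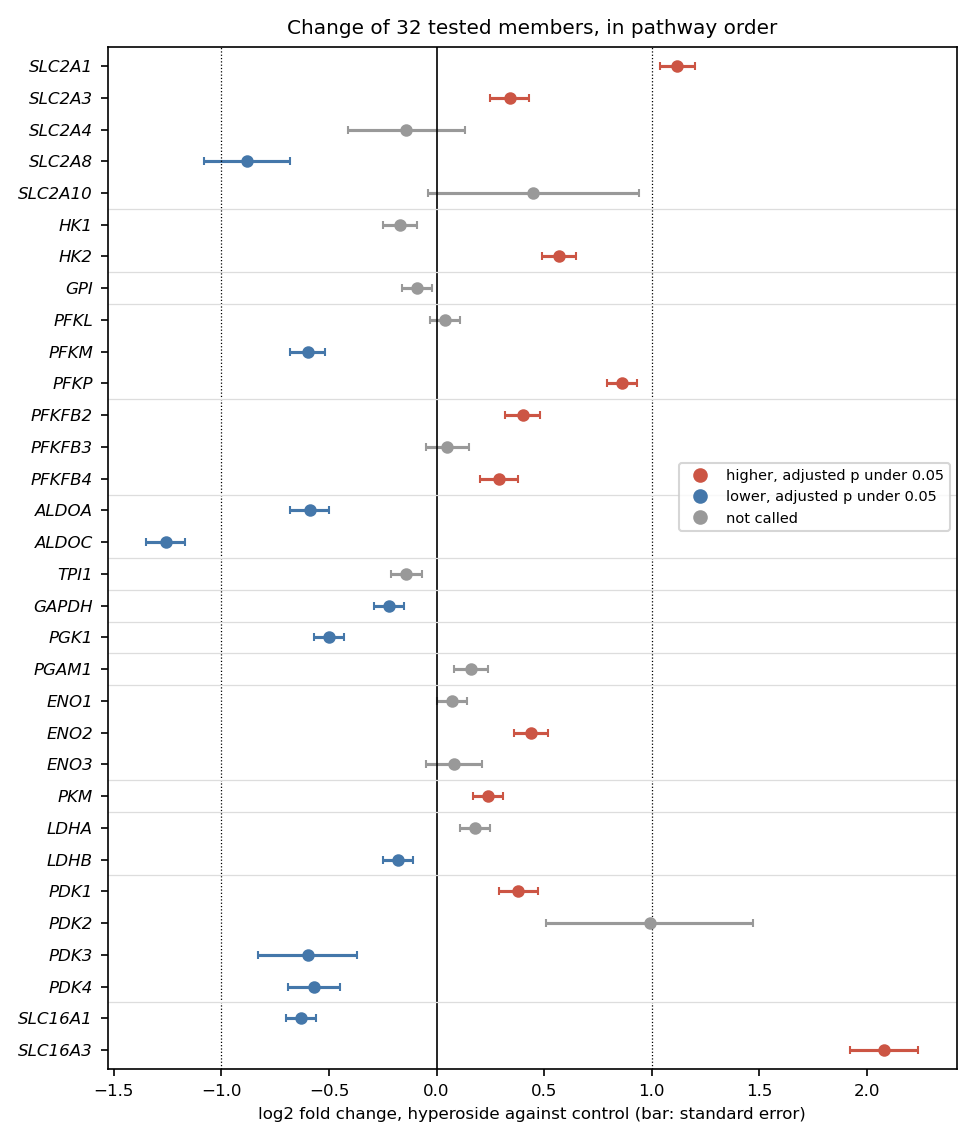
Log2 fold change of each tested member (hyperoside against control, x axis) in pathway order from uptake to lactate transport, with bars for 1 standard error. Red points mark members called higher and blue points members called lower, gray lines separate steps, and dotted lines mark a fold change of 2, which SLC2A1 and SLC16A3 pass upward and ALDOC passes downward.

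The libraries held 35613283 to 36754725 counts on genes, and 1 count corresponded to 0.0272 to 0.0284 CPM. All 11 K562 and erythroid markers examined had counts in every library. Their summed level was 5212.4 to 6709.1 CPM in the control group and 3969.6 to 4760.4 CPM in the hyperoside group, without overlap, and the part of this difference in the results was not tested. The markers did not move together. The globins HBE1, HBG1 and HBG2, which carry most of the sum, had log2 fold changes of -0.46 to -0.87, EPOR, KLF1, LMO2 and ALAS2 had 0.48 to 1.22, and HBZ, GATA1 and TAL1 were not called. Summed markers of other cells were lower, at 29.4 to 36.7 CPM (control) and 40 to 44.8 CPM (hyperoside) for the 4 T cell genes, mostly from CD3D with CD2 at or near 0. The summed range was 2.4 to 3.27 CPM for B cell genes with MS4A1 at or near 0, 5.99 to 8.61 CPM for fibroblast genes, 74.6 to 82.7 CPM for epithelial genes, nearly all EPCAM, and at most 0.114 CPM for the megakaryocytic genes measured. In bulk RNA, fewer cells expressing a gene and less of its RNA per cell cannot be told apart.

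Promoter sequences of the 3 DEGs are shown because hypoxia-inducible factors are known to act on many genes of this pathway through a short core, ACGTG or GCGTG, and MYC and ChREBP act through E-boxes such as CACGTG. Each line gives the 250 bases before the RefSeq start on the gene's own strand (build GRCh38.p14), 5′ to 3′, in lower case. Capitals mark ACGTG or GCGTG on either strand, and so also CACGT and CACGC. The SLC2A1 window lies at chr1:42958869-42959118 on the minus strand, and neither core occurs in it.
SLC2A1: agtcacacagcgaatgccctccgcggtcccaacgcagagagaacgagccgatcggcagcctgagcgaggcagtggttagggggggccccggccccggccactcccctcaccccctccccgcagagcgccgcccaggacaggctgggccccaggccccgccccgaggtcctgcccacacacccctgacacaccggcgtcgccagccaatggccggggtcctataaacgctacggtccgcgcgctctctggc
SLC16A3 has 5 such windows in the RefSeq table, 3 of them with a match. The one at chr17:82228792-82229041 on the plus strand, chosen after the matches were seen, holds ACGTG at 68 and at 55 bases before the start.
SLC16A3: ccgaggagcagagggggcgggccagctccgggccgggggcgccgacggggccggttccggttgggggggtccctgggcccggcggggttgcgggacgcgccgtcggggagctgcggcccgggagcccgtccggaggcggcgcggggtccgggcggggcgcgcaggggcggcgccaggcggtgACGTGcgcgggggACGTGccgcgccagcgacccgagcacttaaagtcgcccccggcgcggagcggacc
The ALDOC window lies at chr17:28576896-28577145 on the minus strand and holds 5 matches, 2 of which overlap as the E-box CACGTG.
ALDOC: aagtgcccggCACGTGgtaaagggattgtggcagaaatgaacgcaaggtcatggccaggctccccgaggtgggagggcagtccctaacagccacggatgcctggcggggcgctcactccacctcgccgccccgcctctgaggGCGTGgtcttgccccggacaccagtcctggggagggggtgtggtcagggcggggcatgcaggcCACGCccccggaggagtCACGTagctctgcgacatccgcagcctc

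A match of these letters is common and is a description only. Either core was found in 43.2% of 35116 RefSeq promoter windows and in 31 of the 58 windows of members (53.4%). ACGTG alone was in 18.5% of all windows and 20 of the 58 (34.5%), GCGTG in 32.2% and 18 (31.0%), and CACGTG, which contains ACGTG, in 6.34% and 7 (12.1%). Of the 29 members with a window, 23 held either core in at least 1 window. SLC2A1, called higher, and LDHB and PDK4, called lower, were among those without one, and SLC16A3 and ALDOC, which moved in opposite directions, both held matches. Some members have several windows and so more chances of a match. No rate per gene over all genes is available to set beside the 23 of 29, so nothing is read from that count.

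Glucose enters K562 cells mainly through the products of SLC2A1 (GLUT1) and SLC2A3 (GLUT3), and transcripts of both rose. SLC2A1 was measured at 190, 163 and 150 CPM in the control libraries and at 355, 356 and 384 CPM in the hyperoside libraries. Every hyperoside library stood well above every control library. The mean was 167.7 ± 20.2 CPM without and 365.3 ± 16.4 CPM with hyperoside (SD, 3 libraries each), and the log2 fold change was 1.12 (SE 0.08, adjusted p = 1e-08). The gene occupies chr1:42925375-42959176 on the minus strand in GENCODE 29 (GRCh38).

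SLC2A3 encodes a transporter with high affinity for glucose. Its CPM was 288, 313 and 307 in the control group and 395, 314 and 437 in the hyperoside group. Hyperoside replicate 2 lay just above the highest control library, so the groups were separated by a narrow margin. The log2 fold change was 0.34 (SE 0.09, adjusted p = 0.00723), and the call was lost without hyperoside replicate 3, with an adjusted p of 0.0608. Over all alternatives tried for this gene the adjusted p ran from 2.67e-05 to 0.0608. Counts of SLC2A3 and of its near-identical copy SLC2A14 may be split between them, and SLC2A14 changed by 0.50 on the log2 scale (SE 0.13, adjusted p = 0.0047).

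SLC2A8 (GLUT8), a transporter of intracellular membranes, fell from 5.83, 5.45 and 4.84 CPM in the control libraries to 3.41, 2.51 and 2.85 CPM in the hyperoside libraries. The groups did not overlap (log2 fold change -0.88, SE 0.20, adjusted p = 0.00187). SLC2A4, the insulin-responsive transporter GLUT4, was at 1.77 to 2.56 CPM in all libraries (log2 fold change -0.14, adjusted p = 0.705). SLC2A10 was below 1 CPM in every library (log2 fold change 0.45, adjusted p = 0.488). The rest of the uptake step thus contributed little, as SLC2A1 and SLC2A3 made up nearly all of its FPKM, the deposited level per gene length and library total.

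As a share of the summed FPKM of the 6 SLC2A members, SLC2A1 took 41.7%, 36.2% and 34.8% in the control libraries and 49.9%, 55.7% and 49.4% in the hyperoside libraries. The share of SLC2A3 was 55.9%, 61.5% and 62.9% in the control group and 49%, 43.4% and 49.7% in the hyperoside group. SLC2A3 therefore led in every control library, while after hyperoside the pair was nearly equal in replicates 1 and 3 and SLC2A1 led in replicate 2. The mean share of SLC2A1 differed by 14.1 percentage points (37.6% ± 3.66 against 51.7% ± 3.5, SD). The summed FPKM of the step was 129 ± 1.85 in control and 213 ± 19.8 in hyperoside libraries, 165% of the control mean.

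Shares and ratios of isoforms within a library do not depend on the scaling between libraries. They were compared by two-sided exact permutation tests over the 6 libraries, in which 3 against 3 cannot give a p below 0.1, so none of these comparisons could reach 0.05. Of 27 shares compared, 22 did not overlap between the groups, and all 10 isoform ratios compared did not overlap. The count of shares holds 8 from the 4 steps with a pair of members, where the shares mirror each other. The ratios HK2/HK1, ALDOC/ALDOA, LDHB/LDHA and SLC16A3/SLC16A1 restate the shares of these 4 steps and are no separate result. No rate over all genes is available to set beside either count. Each share or ratio without overlap had p = 0.1 in the exact permutation test, the smallest the design allows, which an adjustment over the family cannot lower.

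**Figure D2:**
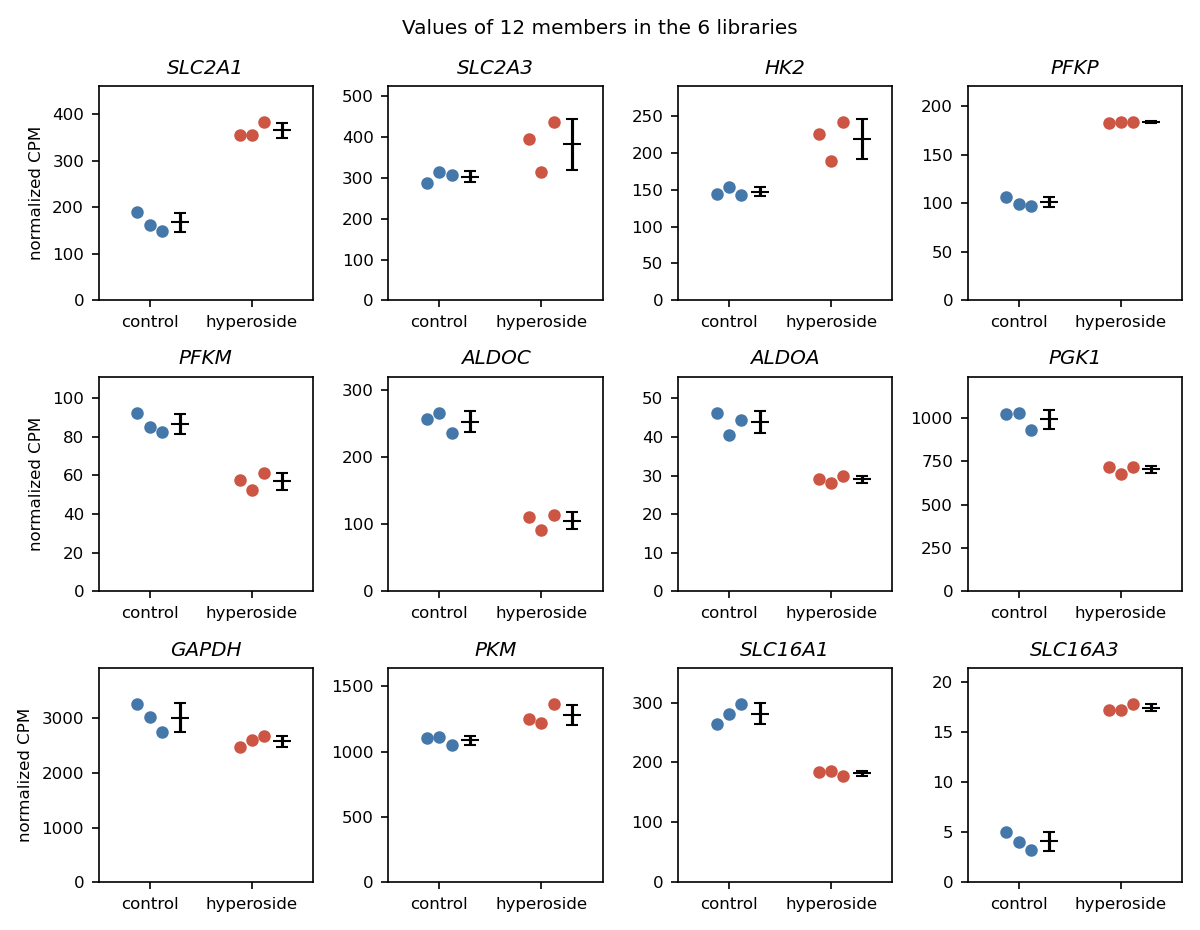
Normalized CPM (y axis, from 0) of 12 members in the 3 control and 3 hyperoside libraries, with the mean and SD beside each group. The groups do not overlap in any of these members, with SLC2A1, PFKP, ALDOC and SLC16A3 separated widely and SLC2A3 and GAPDH by a narrow margin.

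Hexokinases commit glucose to the cell by phosphorylation, and K562 cells expressed HK1, the widely expressed form, and HK2, the inducible form. HK1 was at 669, 590 and 573 CPM in the control libraries and 519, 588 and 516 CPM in the hyperoside libraries. The groups overlapped, since hyperoside replicate 2 was above control replicate 3. HK1 was not called (log2 fold change -0.17, SE 0.08, adjusted p = 0.0717), but it was called lower without control replicate 3 (adjusted p = 0.0394) and without hyperoside replicate 2 (adjusted p = 0.0289), within a range of 0.0289 to 0.253 over the alternatives.

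HK2 is given here after its values were seen, as it lies just under the size limits for genes shown in full. Its level was 144, 154 and 143 CPM in the control group and 226, 189 and 242 CPM in the hyperoside group, without overlap (log2 fold change 0.57, SE 0.08, adjusted p = 2.95e-05). HK2 made up 18.6% ± 1.5 of hexokinase FPKM in control and 27.7% ± 3.91 (SD) in hyperoside libraries. The summed FPKM of the step was 133 ± 5.61 and 138 ± 3, and its libraries overlapped. The isoforms of this step shifted while its total stayed within the spread of the libraries.

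Glucose phosphate isomerase (GPI), which turns glucose 6-phosphate into fructose 6-phosphate, was at 634, 643 and 609 CPM in the control group and 584, 558 and 626 CPM in the hyperoside group. The groups overlapped (log2 fold change -0.09, SE 0.07, adjusted p = 0.272).

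Phosphofructokinase 1 makes the first committed step of glycolysis, and its liver (PFKL), muscle (PFKM) and platelet (PFKP) forms each behaved differently. PFKP was at 107, 98.9 and 97.4 CPM in the control libraries and at 183, 184 and 184 CPM in the hyperoside libraries. The hyperoside libraries were nearly identical to each other and far above the control libraries, with a fold of 1.82 (log2 fold change 0.86, SE 0.07, adjusted p = 3.57e-08). PFKM fell from 92.3, 84.9 and 82.3 CPM to 57.4, 52.4 and 61.1 CPM (log2 fold change -0.60, SE 0.08, adjusted p = 1.48e-05). A part of the PFKM exons, 8.58% of their bases, is shared with SENP1 on the opposite strand, and the use of strand in counting is not given in the sources used here.

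PFKL, the most abundant form per length in the control group, was at 183, 173 and 163 CPM in the control group and 175, 178 and 180 CPM in the hyperoside group. Its groups overlapped (log2 fold change 0.04, SE 0.07, adjusted p = 0.681), and the sign of this small difference turned without control replicate 3 (-0.0044). PFKP took 29% ± 0.358 of the FPKM of the step in control and 44.6% ± 0.589 in hyperoside libraries (SD, n = 3), a difference of 15.6 percentage points, the widest rise among the 27 shares. PFKM fell back from 20.2% ± 0.15 to 11.3% ± 0.744 of the step. The ratio of PFKP to PFKL was 0.571 in control and 1.01 in hyperoside libraries. The summed FPKM of the 3 forms was 82.9 ± 2.55 and 102 ± 0.729, 122% of the control mean.

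The PFKFB enzymes make and remove fructose 2,6-bisphosphate, the strongest activator of phosphofructokinase 1. PFKFB4, the most abundant per length, was at 66.2, 63.3 and 54 CPM in the control libraries and 73.6, 74.7 and 76.2 CPM in the hyperoside libraries. The groups did not overlap (log2 fold change 0.29, SE 0.09, adjusted p = 0.0105), but the call was lost without control replicate 3 (adjusted p = 0.0709, with a range of 0.000409 to 0.0709 over the alternatives). PFKFB2 rose by 0.40 on the log2 scale (SE 0.08, adjusted p = 0.00048). In CPM, not divided by length, PFKFB2 stood above PFKFB4, with means of 89.08 against 61.2 in control and 117.3 against 74.84 in hyperoside libraries. PFKFB3, the inducible form studied in many tumors, was at 19 to 23 CPM in all libraries (log2 fold change 0.05, adjusted p = 0.727). The summed FPKM of the 3 genes was 127% of the control mean, while the share of PFKFB4 stayed at 47.2% ± 3.23 and 47.3% ± 0.424 (SD).

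Aldolase splits fructose 1,6-bisphosphate, and transcripts of both its measured forms fell. ALDOC, known as the brain form, was at 257, 266 and 236 CPM in the control libraries and at 111, 91.4 and 114 CPM in the hyperoside libraries. Each hyperoside library lay far below each control library. Its mean fell from 252.8 ± 15.5 CPM to 105.4 ± 12.3 CPM (SD, 3 libraries each), with a log2 fold change of -1.26 (SE 0.09, adjusted p = 4.32e-09), and it was a DEG under every alternative tried. In level per length it moved from rank 8 to rank 13 among the members. The gene lies at chr17:28573115-28577264 on the minus strand (GENCODE 29), and 10.1% of its exon bases are shared with an antisense gene.

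ALDOA, the form of muscle and of most other cells, was at 46.3, 40.6 and 44.4 CPM in the control group and 29.1, 28.1 and 30 CPM in the hyperoside group, without overlap (log2 fold change -0.59, SE 0.09, adjusted p = 3.78e-05). Its level is uncertain, because 53.5% of its exon bases are shared in GENCODE 29 with a second protein-coding gene on the same strand, which the table lists as LOC112694756. Reads on shared bases may have been dropped or given to either gene, and the counting mode is not given in the sources used here. LOC112694756 itself had 60, 63 and 68 counts in the control group and 69, 73 and 62 counts in the hyperoside group (log2 fold change 0.05, SE 0.29, adjusted p = 0.902). The share of ALDOC in the step was 87.7% ± 1.16 and 81.7% ± 1.37 (SD), and both shares, as well as the sum of the step, carry this uncertainty. The summed FPKM of the 2 aldolases was 163 ± 6.57 in control and 75.4 ± 7.54 in hyperoside libraries, 46.3% of the control mean, a value that mainly follows ALDOC as counted here.

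Triosephosphate isomerase (TPI1), which interconverts the trioses that aldolase releases, was at 639, 578 and 524 CPM in the control group and 512, 525 and 539 CPM in the hyperoside group. The groups overlapped, and TPI1 was not called (log2 fold change -0.14, SE 0.07, adjusted p = 0.123). Without control replicate 3 it was called lower, with an adjusted p of 0.0294, within a range of 0.0294 to 0.402 over the alternatives.

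GAPDH, which oxidizes glyceraldehyde 3-phosphate and gives the pathway its NADH, was the most abundant member per length in both groups, with 1709 ± 109 and 1516 ± 46.8 FPKM (SD, n = 3). It was also the reference gene of the study's qPCR. Its CPM was 3269, 3029 and 2747 in the control libraries and 2474, 2597 and 2672 in the hyperoside libraries. The highest hyperoside library lay just below the lowest control library. The log2 fold change was -0.22 (SE 0.07, adjusted p = 0.014), and the call was lost without hyperoside replicate 1 (adjusted p = 0.0908) and in both limma fits to FPKM values, within a range of 0.0028 to 0.0908. ACTB, another common reference gene, changed by 0.63 on the log2 scale (SE 0.06, adjusted p = 5e-07). GAPDH has 62 annotated pseudogene copies with which its counts could be split, and an antisense gene shares 14.2% of its exon bases.

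PGK1, which forms the first ATP of the payoff phase, fell from 1019, 1029 and 928 CPM to 714, 678 and 715 CPM. The groups were clearly apart (log2 fold change -0.50, SE 0.07, adjusted p = 9.55e-06). PGAM1, the phosphoglycerate mutase of most tissues, was at 225, 220 and 193 CPM in the control group and 229, 230 and 253 CPM in the hyperoside group. The PGAM1 groups did not overlap, but the gene was not called (log2 fold change 0.16, SE 0.08, adjusted p = 0.101). It was called higher without control replicate 1 (adjusted p = 0.0156) and in 4 of 13 alternatives in all, with a range of 0.0156 to 0.408. It has 13 annotated pseudogene copies.

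Enolase makes phosphoenolpyruvate, and ENO1 was by far its main form. ENO1 was at 3065, 2878 and 2624 CPM in the control group and 2888, 3053 and 3052 CPM in the hyperoside group, with overlapping groups (log2 fold change 0.07, SE 0.07, adjusted p = 0.421). ENO2, the form named for neurons, rose by 0.44 (SE 0.08, adjusted p = 0.000413), and its share of enolase FPKM was 7.4% ± 0.578 and 9.32% ± 1.13 (SD). ENO3, the muscle form, was at 9.29 to 12.2 CPM (log2 fold change 0.08, SE 0.13, adjusted p = 0.649), with the sign turned without control replicate 2 (-0.02).

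PKM encodes the pyruvate kinases M1 and M2, which make pyruvate and ATP and which a count per gene cannot tell apart. It was at 1102, 1112 and 1048 CPM in the control libraries and 1254, 1222 and 1367 CPM in the hyperoside libraries. The groups did not overlap, and PKM rose by 0.24 on the log2 scale (SE 0.07, adjusted p = 0.00725), a call that held in all 13 alternatives. In the payoff phase, 2 of 7 members were called higher (ENO2 and PKM, 28.6%) and 2 lower (GAPDH and PGK1, 28.6%), near the 22.1% and 23.2% of all tested genes.

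Lactate dehydrogenase interconverts pyruvate and lactate, with LDHA as the form favoring lactate formation and LDHB as the heart form. LDHA was at 1881, 1894 and 1578 CPM in the control group and 2005, 1961 and 2079 CPM in the hyperoside group. All hyperoside libraries were above the control libraries, of which replicate 3 was the lowest, and LDHA was not called (log2 fold change 0.18, SE 0.07, adjusted p = 0.0588). It was called higher without control replicate 1 (adjusted p = 0.00876) and in 5 of 13 alternatives, with a range of 0.00876 to 0.324.

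LDHB was called lower with little to spare (log2 fold change -0.18, SE 0.07, adjusted p = 0.0487), and only 3 of 13 alternatives kept the call, with adjusted p from 0.0214 to 0.178. Leaving out control replicate 1 (0.153) or 2 (0.0787), or hyperoside replicate 1 (0.178), 2 (0.106) or 3 (0.0676), each lost the call, given here as adjusted p. In GENCODE 29 a gene on the same strand shares 33.4% of the LDHB exon bases. The share of LDHA in the step was 64.3%, 67.1% and 64% in the control libraries and 71%, 70.1% and 70.4% in the hyperoside libraries. The balance of the forms thus stood further toward LDHA in every hyperoside library, with a difference of 5.39 percentage points.

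Lactate leaves cells through monocarboxylate transporters, and here the main form fell while the minor form rose. SLC16A3 (MCT4), the form typical of glycolytic cells that export lactate, was at 5.06, 4.06 and 3.19 CPM in the control libraries and 17.2, 17.2 and 17.8 CPM in the hyperoside libraries. Those values rest on 178, 143 and 114 counts and on 633, 631 and 643 counts. The hyperoside libraries were nearly equal and far above the controls, with the largest fold among the members, 4.24 (log2 fold change 2.08, SE 0.16, adjusted p = 1.27e-08), and a DEG call under every alternative tried. SLC16A3 spans chr17:82228397-82261129 on the plus strand, and 6.04% of its exon bases are shared with other genes, among them CSNK1D on the opposite strand.

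SLC16A1 (MCT1), which moves lactate in either direction, was at 264, 281 and 298 CPM in the control group and 184, 185 and 177 CPM in the hyperoside group. The groups were well apart (log2 fold change -0.63, SE 0.07, adjusted p = 1.36e-06). SLC16A3 held 2.01% ± 0.567 of the FPKM of the pair in control and 11.7% ± 0.444 in hyperoside libraries (SD), so SLC16A1 remained the main form in all 6 libraries. The ratio of SLC16A3 to SLC16A1 was 0.02 and 0.133, the widest shift of the 10 ratios. Summed FPKM of both transporters was 62.5 ± 4.95 in control and 46.5 ± 1.15 in hyperoside libraries, 74.4% of the control mean. BSG, the chaperone that carries both transporters to the cell surface, had a log2 fold change of -0.16 (SE 0.07, adjusted p = 0.0785) and was looked at after its value was seen.

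Pyruvate dehydrogenase kinases phosphorylate and so inhibit the complex that feeds pyruvate into the mitochondria. PDK4, known for its induction in fasting, was the most abundant of the 4 per length, at 45.8, 53.7 and 62.5 CPM in the control group and 38.8, 30.4 and 40.2 CPM in the hyperoside group. The groups did not overlap (log2 fold change -0.57, SE 0.12, adjusted p = 0.00076). PDK1, a known target of hypoxia signaling, rose from 88.2, 116 and 103 CPM to 136, 122 and 143 CPM (log2 fold change 0.38, SE 0.09, adjusted p = 0.00267). In CPM, which is not divided by length, PDK1 stands above PDK4, and in FPKM it stands below. The gene length implied by the deposited FPKM is 15188 bases for PDK1 and 3601 bases for PDK4. Transcript lengths in these cells were not measured, so the order of these kinases depends on the lengths used.

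PDK3, a form with a low level here, was at 4.44, 3.69 and 4.67 CPM in the control group and 3.62, 2.15 and 2.66 CPM in the hyperoside group. Hyperoside replicate 1 lay just below the lowest control library, and the call was close to its limit (log2 fold change -0.60, SE 0.23, adjusted p = 0.0436). It was kept in 5 of 13 alternatives, with adjusted p from 0.0175 to 0.162, and was lost without control replicate 1 (0.0714) or 3 (0.116) and without hyperoside replicate 2 (0.162) or 3 (0.116). PDK2 had 13, 14 and 32 counts in the control group and 47, 32 and 42 counts in the hyperoside group, and 38.6% of its exon bases are shared with SAMD14 on the opposite strand. It was not called (log2 fold change 0.99, SE 0.48, adjusted p = 0.0993), except without control replicate 3 (adjusted p = 0.0326), within a range of 0.0326 to 0.25.

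Within the kinase step the composition moved while the total did not separate. PDK1 held 30.6%, 33.4% and 27.5% of the summed FPKM in the control libraries and 44.1%, 47.8% and 44.7% in the hyperoside libraries. PDK4 held 67.1%, 65% and 70.2% in the control libraries and 53%, 50% and 53% in the hyperoside libraries. The share of PDK1 was 15 percentage points higher and that of PDK4 15.4 points lower after hyperoside, with PDK4 still the main form per length but not in CPM. Summed FPKM was 21.9 ± 3.41 and 19.8 ± 2.25 (SD), with overlapping libraries.

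**Figure D3:**
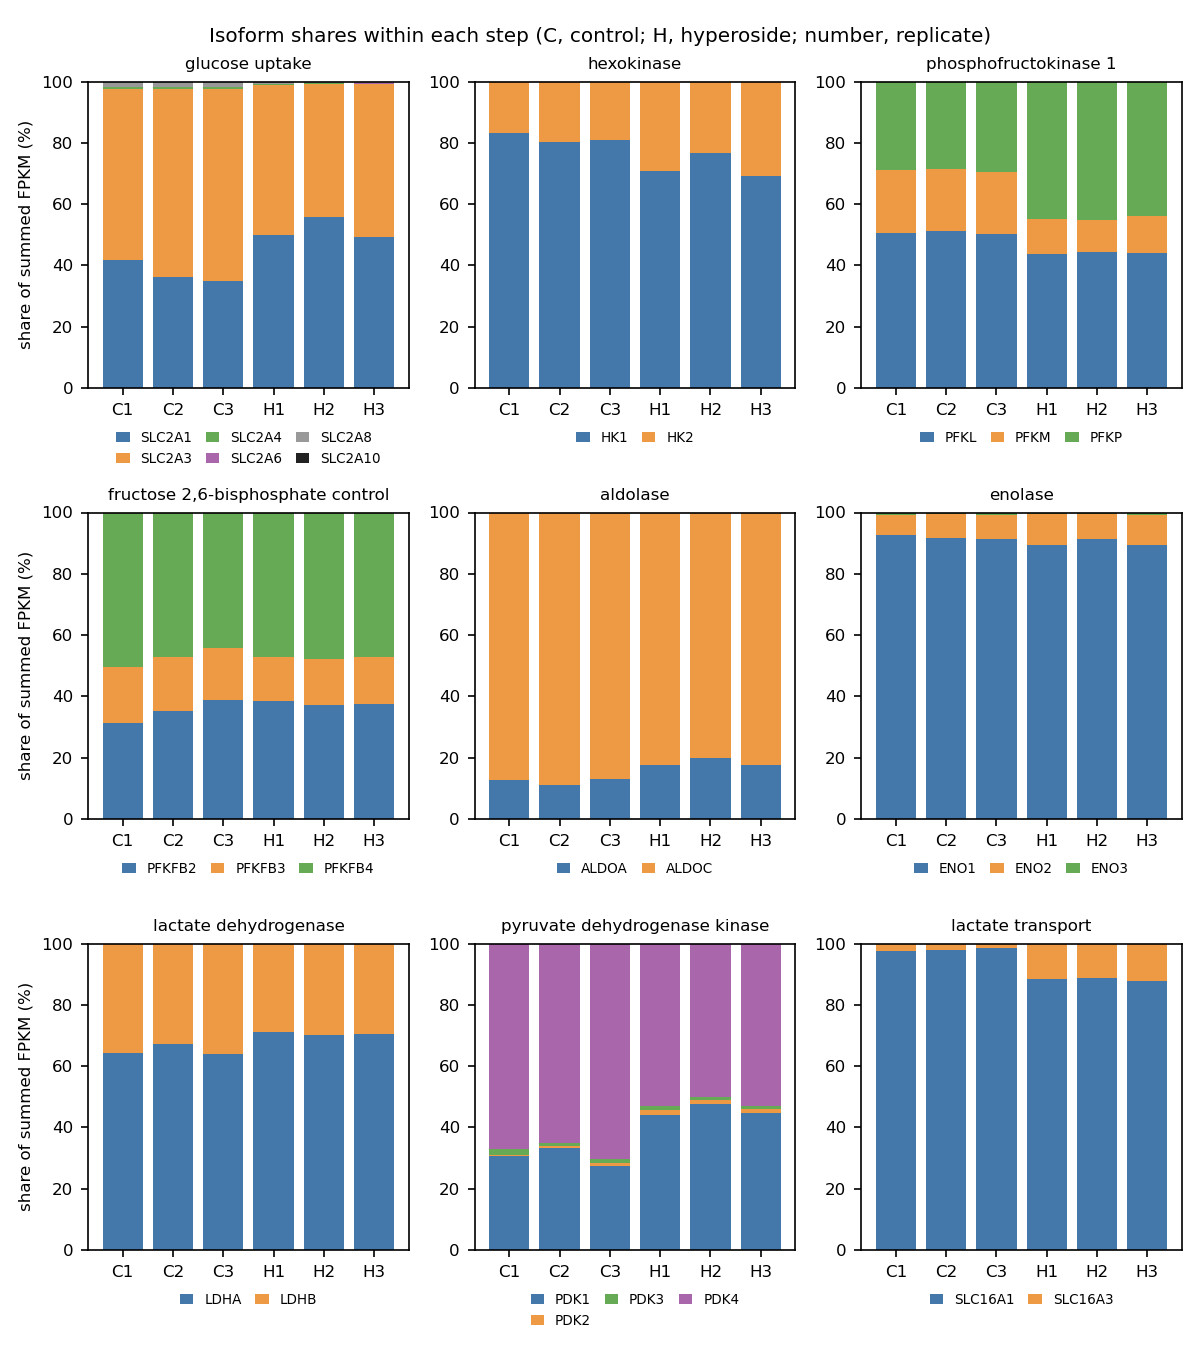
Share of each isoform in the summed FPKM of its step (y axis, percent) in the 3 control (C1 to C3) and 3 hyperoside (H1 to H3) libraries, for the 9 steps with more than 1 member. PFKP, PDK1 and SLC2A1 took larger shares in every hyperoside library, by 15.6, 15 and 14.1 percentage points on average, and SLC16A3 moved from 2.01% to 11.7% of lactate transport.

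Across all 15 steps, the summed FPKM of 7 steps was higher in every hyperoside library than in any control library, that of 4 steps was lower, and 4 steps overlapped. With TMM factors applied to FPKM, an alternative chosen after the data were seen, enolase and lactate dehydrogenase overlapped, which left 5 higher steps, and the 4 lower steps stayed separated. The higher steps as deposited were glucose uptake, phosphofructokinase 1, the PFKFB enzymes, phosphoglycerate mutase, enolase, pyruvate kinase and lactate dehydrogenase, at 108% to 165% of the control mean. The lower steps were aldolase, GAPDH, PGK1 and lactate transport, at 46.3% to 88.7%, with the low end set by aldolase, whose sum is uncertain. These sums were not tested. GAPDH, PGK1, PGAM1 and PKM are each the only gene of their step, so their steps repeat the values given above, and PGAM1 was not called. Among all tested genes, 54.4% did not overlap in CPM in either direction, and no such rate is available for sums over genes. FPKM values carry no TMM normalization. On their scale the median log2 fold change of all tested genes lay at 0.027 with 1 added to FPKM and at 0.049 with 0.1 added.

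The members together took 1.47%, 1.46% and 1.36% of the counts in the control libraries and 1.45%, 1.45% and 1.51% in the hyperoside libraries. Their summed CPM was 14590 ± 934 in control and 14477 ± 453 in hyperoside libraries (SD, n = 3), with overlapping libraries. ENO1, GAPDH and LDHA alone held 51.2% to 53.5% of this sum in each library, so the sum mostly follows these 3 genes. The order of the 7 most abundant members per length, GAPDH, ENO1, LDHA, LDHB, PKM, TPI1 and PGK1, was kept after hyperoside except that PKM (388.1 ± 20.7 FPKM) passed LDHB (342.5 ± 8.16 FPKM). In the control group, LDHB (374.4 ± 22.5 FPKM) stood above PKM (318.2 ± 7.88 FPKM). SLC2A1 moved from rank 15 to rank 9 of 33 in level per length, and SLC2A1, SLC2A3 (101.4 ± 16.3 FPKM) and ENO2 (99.74 ± 12.1 FPKM) lay within their spread of each other in the hyperoside group.

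**Figure D4:**
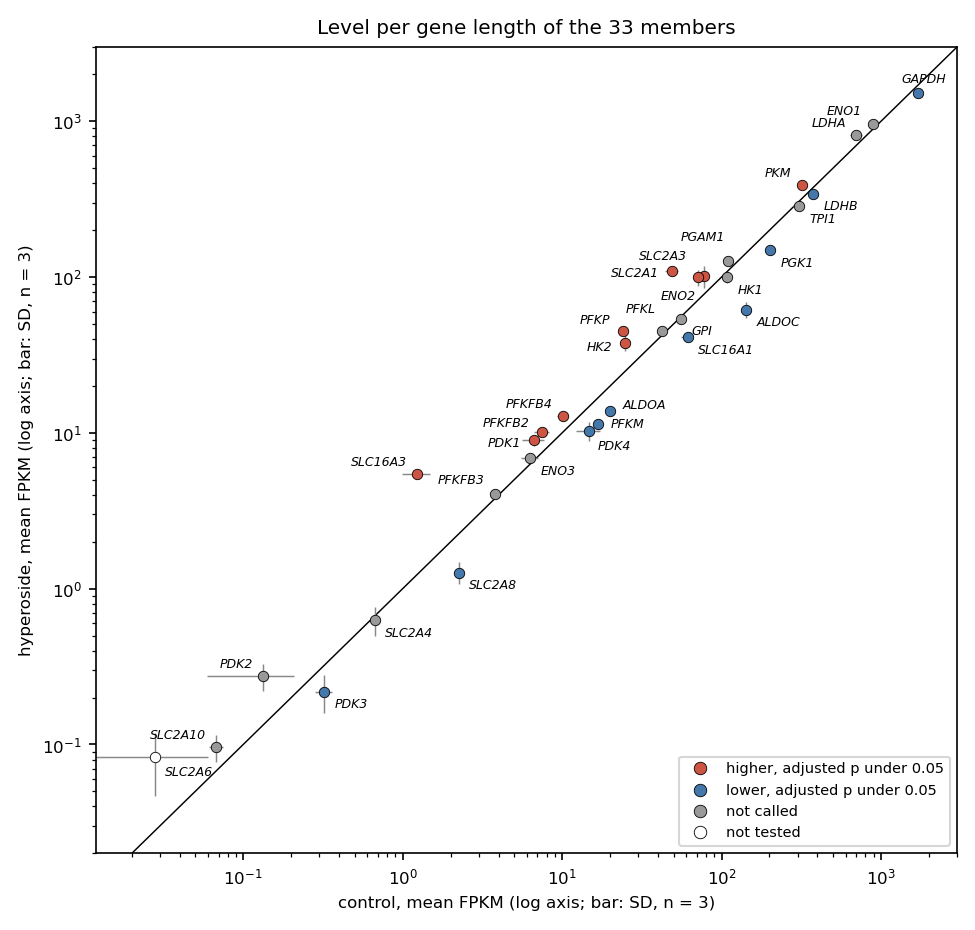
Mean FPKM of the 33 members in the control group (x axis) and the hyperoside group (y axis), both on log axes, with SD bars (n = 3) and the line of equal levels. Levels span from SLC2A6 at 0.02794 to GAPDH at 1709 FPKM in the control group, SLC16A3 stands farthest above the line among the tested members and ALDOC farthest below, and the left end of the horizontal bar of SLC2A6 is cut by the axis.

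Genes around the pathway were described by 5 lists. Beside their counts stand the 22.1% higher and 23.2% lower of all tested genes, of which 6.43% were higher DEGs and 3.76% lower DEGs. Of 25 other glycolytic isoforms and carriers, 13 were tested, with 1 called higher (7.69%, SLC2A14) and 2 lower (15.4%), at a median of -0.00069. The lower ones were PKLR (log2 fold change -0.67, SE 0.09, adjusted p = 1.18e-05) and BPGM (-0.45, SE 0.10, adjusted p = 0.00135). PKLR is the pyruvate kinase of liver and red cells, and BPGM makes the red cell metabolite 2,3-bisphosphoglycerate. None of the 13 was a DEG. These 2 genes, and all genes of the lists named here that are not DEGs, were chosen after their values were seen.

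Of 11 genes for pyruvate entry into mitochondria, all were tested, with 1 higher (9.09%) and 2 lower (18.2%), at a median of -0.11 on the log2 scale. MPC2, a subunit of the mitochondrial pyruvate carrier, fell by 0.54 on the log2 scale (SE 0.07, adjusted p = 1.14e-05). PDP2, a phosphatase that opposes the PDK enzymes, fell by 0.82 (SE 0.09, adjusted p = 1.89e-06). PDP1, the other such phosphatase of the list, was not called (log2 fold change -0.31, SE 0.23, adjusted p = 0.289). PDPR, a regulatory subunit of pyruvate dehydrogenase phosphatase, rose by 0.50 (SE 0.08, adjusted p = 4.76e-05). Genes of the pyruvate dehydrogenase core were not called, PDHA1 at -0.07 (adjusted p = 0.435) and PDHB at -0.06 (adjusted p = 0.62) among them.

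The pentose phosphate branch leaves glycolysis at glucose 6-phosphate and yields NADPH and ribose. It had 11 tested genes, 1 higher (9.09%) and 4 lower (36.4%), with a median of -0.18. PRPS1 and PRPS2, which carry ribose 5-phosphate on to nucleotide synthesis, fell by 0.60 (SE 0.08, adjusted p = 7.33e-06) and by 0.53 (SE 0.08, adjusted p = 3.16e-05). RPE and TALDO1 of the non-oxidative arm were also lower, and H6PD, which acts in the endoplasmic reticulum, rose by 0.85 (SE 0.15, adjusted p = 0.000209).

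Glycogen and sugar-feeding genes gave 4 higher (21.1%) and 6 lower (31.6%) of 19 tested, with a median of -0.06. GFPT1, which draws fructose 6-phosphate into hexosamine synthesis, was the DEG of this list, at 313, 371 and 409 CPM in the control group and 140, 126 and 138 CPM in the hyperoside group. Its hyperoside libraries all lay far below the controls (log2 fold change -1.44, SE 0.09, adjusted p = 1.38e-09). The next enzymes of the same route to UDP-N-acetylglucosamine fell as well, GNPNAT1 by 0.52 (SE 0.09, adjusted p = 0.000184), PGM3 by 0.84 (SE 0.08, adjusted p = 1.47e-07) and UAP1 by 0.55 (SE 0.07, adjusted p = 1.13e-05). GYS1 and GBE1, which build glycogen, were among the 4 higher genes of this list, with log2 fold changes of 0.41 (SE 0.09, adjusted p = 0.000988) and 0.73 (SE 0.10, adjusted p = 2e-05).

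Regulators of glycolytic transcription gave 6 higher (37.5%) and 3 lower (18.8%) of 16 tested, with a median of 0.04 and 3 DEGs. TXNIP, whose product lowers glucose uptake by acting on SLC2A1 and SLC2A4 proteins, was at 143, 163 and 149 CPM in the control group and 622, 585 and 602 CPM in the hyperoside group (log2 fold change 1.99, SE 0.07, adjusted p = 1.98e-12). EPAS1 (HIF-2 alpha) was at 34.5, 38.7 and 35.9 CPM and at 97.8, 94.1 and 94.8 CPM (log2 fold change 1.39, SE 0.08, adjusted p = 5.57e-10). EGLN3, a HIF prolyl hydroxylase, was at 57.8, 60.6 and 48.8 CPM and at 130, 115 and 131 CPM (log2 fold change 1.17, SE 0.09, adjusted p = 1.57e-08). In all 3 DEGs the groups were far apart. The remaining higher genes were EGLN1 (log2 fold change 0.61, SE 0.08, adjusted p = 1.38e-05), ARRDC4 (0.37, SE 0.13, adjusted p = 0.0254) and HIF1AN (0.32, SE 0.10, adjusted p = 0.0106). HIF1A itself fell by 0.33 (SE 0.09, adjusted p = 0.00604), VHL by 0.58 (SE 0.07, adjusted p = 1.83e-06) and MLXIPL, which encodes ChREBP, by 1.0 (SE 0.19, adjusted p = 0.000347). MYC was not called (log2 fold change 0.02, SE 0.08, adjusted p = 0.851).

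**Figure D5:**
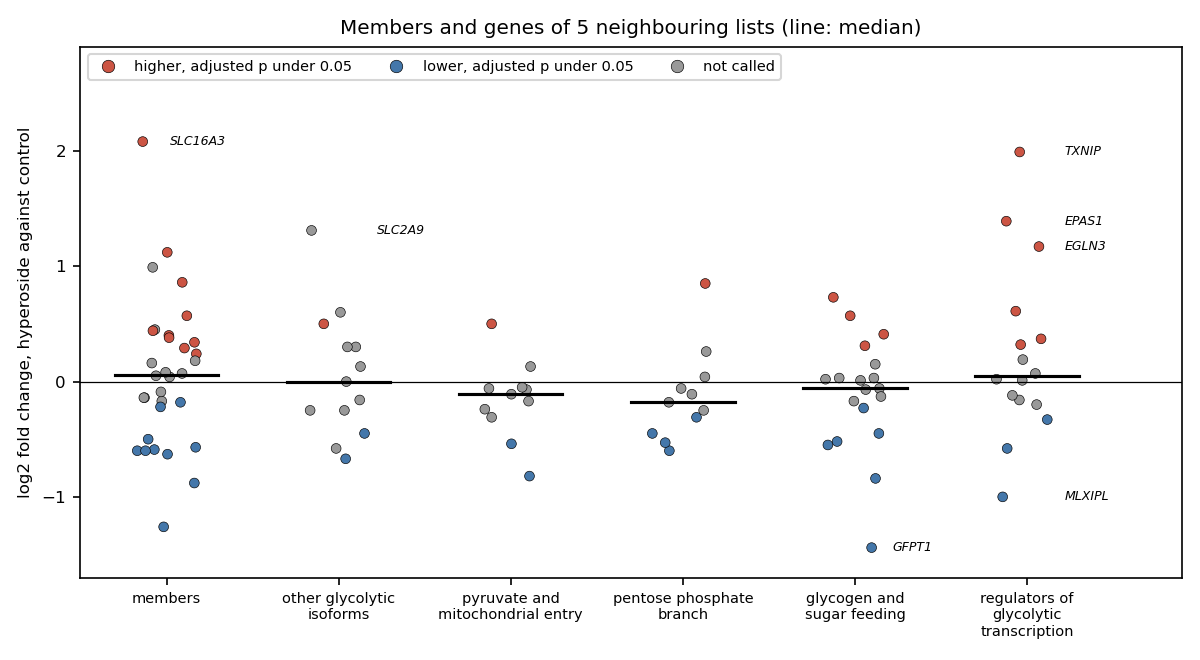
Log2 fold change (y axis) of the tested members and of the tested genes of 5 neighbouring lists, 1 point per gene with horizontal jitter, and a line for each median. Points of both directions occur in each list, the medians lie between -0.18 and 0.06, and TXNIP, EPAS1 and EGLN3 among the regulators and GFPT1 among the sugar-feeding genes lie farthest out of the called genes that are no members.

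By the pathway annotation deposited with the counts, 17 members belong to HIF-1 signaling, of which 5 (29.4%) were higher and 6 (35.3%) lower, their median log2 fold change being 0.05. SLC2A1, HK2, PFKP, ENO2 and PDK1 were the higher ones, and PFKM, ALDOA, ALDOC, GAPDH, PGK1 and LDHB the lower ones. The 66 other tested genes of that annotation gave 18 higher (27.3%) and 16 lower (24.2%), with a median of -0.04. Over all tested genes the shares were 22.1% higher and 23.2% lower, so nothing particular to this annotation is read from these counts.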

How the data were processed

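RNA of 3 control and 3 hyperoside libraries of K562 cells was extracted with Trizol, prepared with the VAHTS Universal V6 kit and sequenced on an Illumina HiSeq instrument. The submitters' processing notes name fastp, HISAT2, HTSeq and hg38 without versions, and the annotation, the use of strand and the overlap mode are not given in the sources used here. The values used are whole read counts for each gene as the authors deposited them. The deposited table also gives FPKM, in which the authors divided counts by gene length and library total, and 1 gene length accounted for these values in all 6 libraries in 100% of genes with counts (relative tolerance 1e-4). Every column of per-sample values was matched to a sample by its label.

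Counts were compared in R 4.3.3 with edgeR 4.0.16, using TMM (factors 0.957 to 1.03), filterByExpr (minimum count 10, minimum total 15) and the quasi-likelihood test and group as the sole factor. Adjustment followed Benjamini and Hochberg over 15095 genes, and the SE is the size of the log2 fold change divided by the square root of F. For DEGs, the adjusted p had to be under 0.05 and the fold change over 2. The study's DESeq was not used here. Replicates differed by more than counting error (chi-square per degree of freedom 6.34 to 23.1), so none was counted as a copy of another. Shares were taken from FPKM and compared in Python 3.11.15 with scipy 1.17.1 by exact permutation tests over 20 regroupings. DESeq2 1.42.0 and limma 3.58.1 (on FPKM plus 1 or 0.1) served for alternatives. The fit was also run on counts simulated with its own dispersions, which checks the code and tells nothing about these data. Pathway membership came from the deposited annotation, gene positions from GENCODE 29 and promoters from RefSeq.

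Values in every library were given for members called with an absolute log2 fold change of at least 0.58, with a share difference of at least 10 percentage points, or most abundant per length in their step, and for GAPDH. By the same rule, listed genes that are no members were named when they were DEGs, at most 5 per list, and TXNIP. HK2 and further listed genes that are no DEGs were named outside this rule, after their values were seen. The members and lists were chosen with earlier results of these data known.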

Additional observations from a re-analysis of the deposited data

How the results depend on the processing

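Of 416 results of single members under 13 alternatives, 377 kept their direction and side of the threshold, 23 lost the call, 13 gained one and 3 turned sign, and 15 of the 20 called members kept their call throughout. The number of members called higher was 9 to 12 and lower 7 to 11. Higher DEGs numbered 2, or 3 without control replicate 3. Lower DEGs numbered 1 under every alternative except without hyperoside replicate 1, where they were 2 (1 to 2 over single libraries left out). The sign turned in members that were not called, with ranges over single libraries left out of -0.0044 to 0.08 for PFKL, -0.01 to 0.09 for PFKFB3 and -0.02 to 0.14 for ENO3 (log2 fold change). The difference in the share of PFKFB4 was -0.733 percentage points from counts not divided by length and ran from -1.48 to 1.75 over single libraries left out, and that of ENO3 ran from -0.0616 to 0.041. Adding the counts of LOC112694756 to ALDOA, an alternative chosen after the data were seen, gave a difference of 6.51 percentage points in the ALDOA share. With 60 to 73 counts per library this addition could move the share little. Reads dropped from both genes would stay uncounted, so the uncertainty of the ALDOA level remains. The causes were not tested.

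The replicate numbers of the labels did not pair the libraries, as same-numbered libraries deviated from their group means with correlations of -0.081, -0.0327 and -0.0342. With the replicate block, 10 members were called higher and 9 lower, LDHB losing its call (adjusted p = 0.112), and no other call of a member changed. For shares, the mean of paired differences equals the difference of means by construction (15.6 percentage points for PFKP).

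With 3 libraries a group, members near 1 CPM such as PDK2 and SLC2A10 had standard errors of 0.48 and 0.49, so fold changes of up to about 1 on the log2 scale were not detectable in them. The median of all tested genes moved to at most 0.049 under any alternative. Time of treatment, protein, metabolites and flux were not analysed here.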

Other observations

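The deposited annotation also puts 23 tested genes that are no members in the glycolysis and gluconeogenesis pathway. Of these, 2 (8.7%) were called higher and 10 (43.5%) lower by edgeR, against 22.1% and 23.2% of all tested genes, with a median log2 fold change of -0.17. The 2 higher genes were the aldehyde dehydrogenases ALDH1B1 and ALDH3B1. The lower genes included PCK1 and PCK2, which make phosphoenolpyruvate from oxaloacetate, and ACSS1 and ACSS2, which activate acetate, and these names were chosen after their calls were seen. The 18 members of the same annotated pathway gave 4 higher (22.2%) and 6 lower (33.3%), with a median of -0.03.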
